A study of Mus musculus with 19 samples.

Results

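Transcript levels of 10 genes of the corticosteroid response were followed through the dorsal hippocampus of male C57BL/6J mice: the receptor genes Nr3c1 and Nr3c2 and 8 genes that glucocorticoids induce in brain, Tsc22d3, Fkbp5, Sgk1, Cdkn1a, Ddit4, Zbtb16, Errfi1 and Pdk4. They were chosen by symbol among the 51789 genes of the count table, all 10 had a row in it, and all 10 passed the filter on low counts in every comparison. The series held 19 libraries of total RNA depleted of ribosomal RNA, from mice 2 to 4 months old in 2 experiments. In experiment 2 no mouse carried the DN transgene, and the 2 groups were 4 libraries from mice given SOR and 4 from homecage mice. The tetracycline transactivator tTA was absent from the mice of SOR replicate 1 and homecage replicates 1 and 2 (tTA-/DN-) and present in those of the other 5 libraries (tTA+/DN-). Experiment 1 held 5 libraries from tTA+/DN+ mice and 6 from tTA+/DN- controls, all 11 of them from mice given SOR. DN stands for a mutant Nr4A protein that blocks the Nr4A family of transcription factors. The labels give SOR by its abbreviation only; in work on this line it stands for spatial object recognition, a learning task with objects in an arena. In this line tTA is driven by a promoter active in excitatory forebrain neurons, so glia and vessels in the dissected tissue are not expected to make DN. The interval between SOR and dissection is not given in the sources used here, and the labels do not state that each library is a separate mouse, so p-values measure the spread between libraries.

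Corticosterone, the main glucocorticoid of the mouse, enters cells and binds 2 related receptors that act as transcription factors. The mineralocorticoid receptor, made from Nr3c2, binds it tightly and is largely occupied at resting hormone levels, and it is abundant in hippocampal neurons. The glucocorticoid receptor, made from Nr3c1, binds it less tightly and fills as the hormone rises with stress, arousal or the time of day. The bound receptor sits on DNA elements near its target genes, among them Fkbp5 and Tsc22d3.

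Library totals ran from 22258159 to 66991576 counts, with SOR replicate 3 of experiment 2 the smallest library and the one with fewest genes detected (27815, against 30974 to 31141 in the other 3 SOR libraries). It stood apart over all genes: of 21740 genes it was the lowest of the 8 libraries of experiment 2 in 31.4% and the highest in 29.2%. Levels are given as CPM, a gene's counts scaled to its library's total, after TMM scaling within each experiment, and a difference in level between the experiments cannot be told apart from their separate scaling and handling. In bulk tissue, a lower level can mean fewer cells of a type or less RNA per cell, and these cannot be told apart. The summed markers of neurons (8 genes, led by Snap25) ran from 5178 to 6641 CPM over all libraries, and those of granule cells, CA1 and CA3 were present in each. Choroid plexus markers (8 genes, led by Ttr) were uneven: they summed to 44.1 to 172 CPM in the homecage libraries and to 990.3, 2184, 23.1 and 56.3 CPM in SOR replicates 1 to 4. In experiment 1 they ran from 19.8 to 4116 CPM in the controls and from 25.9 to 1645 CPM in the DN mice. Of these markers Kcne2 had no count in 1 control library.

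The comparison of SOR with homecage in experiment 2 asks which genes changed after the exposure in mice without DN. Tsc22d3 and Cdkn1a rose. The other 6 induced genes had higher means after SOR without passing the adjusted test, and both receptors had lower means. Of the 10 genes 2 were called at an edgeR adjusted p under 0.05, where 0.0897% of the 22305 genes tested were called. An unadjusted p under 0.05 was found in 9 of the 10 genes, against 7.6% of all genes tested, and the log2 fold change was above 0 in 8 of them, against 51.5%. In 8 of 10, the induced genes, every SOR library lay above every homecage library, which happened in 3.06% of all genes tested. In 1, Nr3c1, every SOR library lay below, against 2.65% of all genes. The median log2 fold change was 0.52 over the 10 genes and 0.0076 over all genes tested. The genes had been chosen with earlier results of these data known, Tsc22d3 being among the genes already seen to rise, so these counts are a description.

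**Figure D1:**
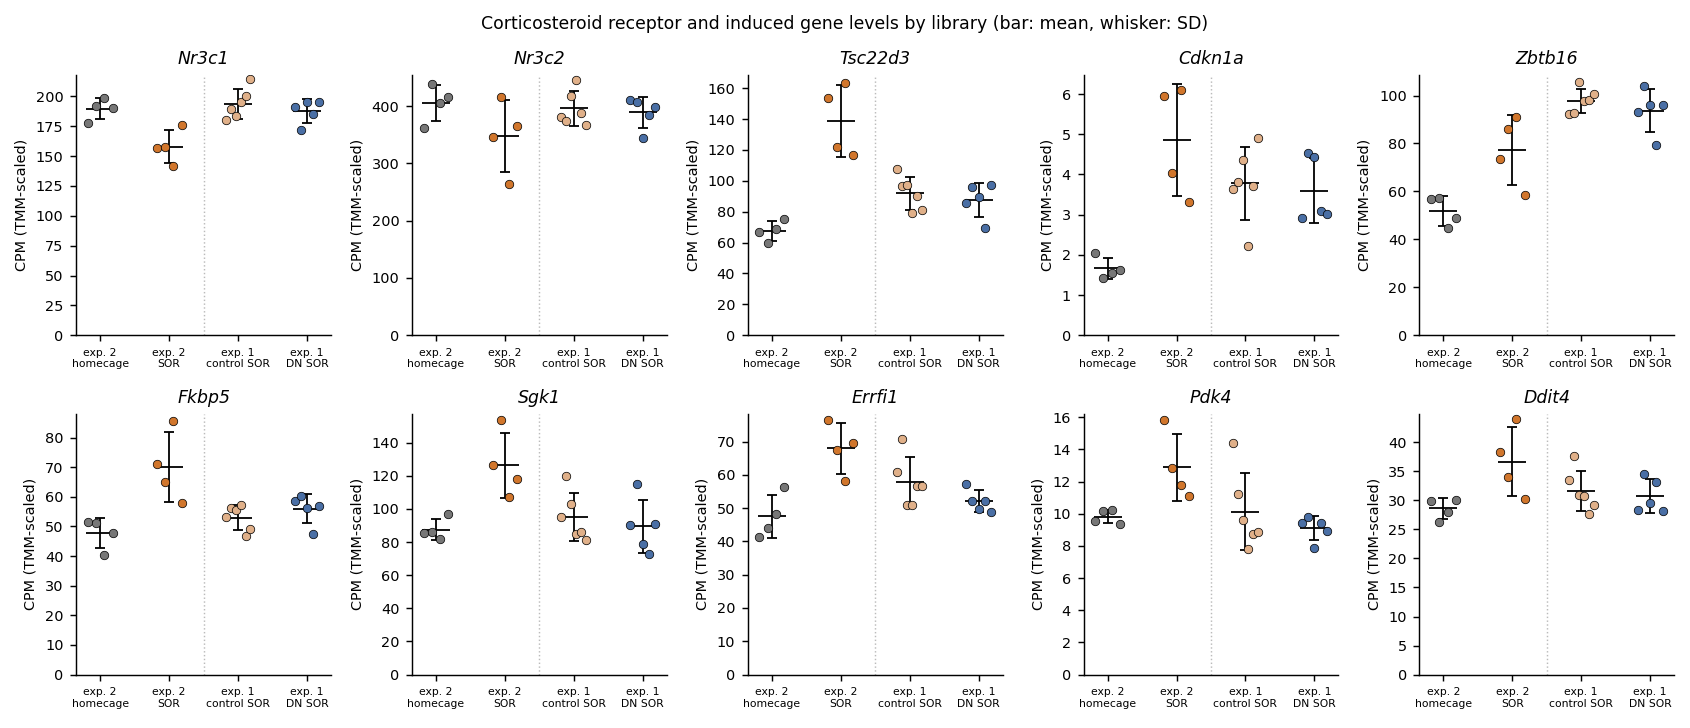
CPM (TMM-scaled within each experiment, y axes starting at 0) of the 10 genes in each library of the 4 groups; points are libraries, the bar is the mean and the whisker the SD. In experiment 2 the 4 SOR points of Tsc22d3 sit between 117 and 164 CPM, above the homecage points at 59.5 to 75.3 CPM, while the DN and control points of experiment 1 overlap in every gene.

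Nr3c1 (ENSMUSG00000024431.14, GRCm38 chromosome 18, 39410545 to 39519421, minus strand), the glucocorticoid receptor gene, was at 178, 192, 198.5 and 190.2 CPM in homecage replicates 1 to 4 and at 157, 158, 142 and 176 CPM in SOR replicates 1 to 4. The groups did not overlap, but homecage replicate 1 and SOR replicate 4 were less than 2 CPM apart. The log2 fold change was -0.26 (SE 0.0845, 95% interval -0.448 to -0.078; unadjusted p 0.00948, edgeR adjusted p 0.604). It stayed below 0 in each of the 20 alternative fits, between -0.318 and -0.214, and was called in 0 of them. Nr3c2 (ENSMUSG00000031618.13, chromosome 8, 76899442 to 77245012, plus strand), the mineralocorticoid receptor gene, was at 362, 438, 406 and 416 CPM in the homecage and at 346, 417, 264 and 365 CPM after SOR. Its groups overlapped, the lowest value being that of the small SOR replicate 3. The log2 fold change was -0.22 (SE 0.126, interval -0.498 to 0.055, edgeR adjusted p 0.670). It was -0.11 without SOR replicate 3, and between -0.373 and -0.11 over the alternative fits.

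To set genes side by side, levels were divided by the length of all annotated exons of a gene. Gene counts do not say which transcripts were in use, so the order of genes depends on that length. Per kilobase, Nr3c2 was the highest of the 10 genes in the homecage at 62.6 ± 4.91 CPM per kb (SD, n = 4). Nr3c1 was the next at 24.7 ± 1.14. The ratio of Nr3c2 to Nr3c1 on that scale was 2.54 ± 0.138 in the homecage and 2.61 ± 0.389 after SOR (SD, n = 4 each), and 2.43 ± 0.262 in the controls (SD, n = 6) and 2.47 ± 0.258 in the DN mice (SD, n = 5) of experiment 1. The ranges of these ratios overlapped between all 4 groups. Below the receptors in the homecage came Sgk1 (17.8 ± 1.32), Ddit4 (16.3 ± 1.02), Tsc22d3 (15.6 ± 1.5) and Errfi1 (13.3 ± 1.81), neighbours whose libraries overlapped. Zbtb16 (9.82 ± 1.17), Fkbp5 (5.05 ± 0.545), Pdk4 (2.80 ± 0.123) and Cdkn1a (0.468 ± 0.0756) followed with no overlap between neighbours. After SOR the order changed at the top: Tsc22d3, at 32.0 ± 5.36 CPM per kb (SD, n = 4), came next after Nr3c2. Sgk1 (25.8 ± 4.01) and Ddit4 (20.9 ± 3.39) followed, and Nr3c1, at 20.6 ± 1.82, ranked 5. The libraries of Tsc22d3 and Nr3c1 did not overlap, and those of Sgk1 and Ddit4 overlapped with Nr3c1.

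Tsc22d3 (ENSMUSG00000031431.13, chromosome X, 140539528 to 140600659, minus strand, 13 annotated exons) encodes GILZ, a leucine zipper protein that restrains inflammatory transcription factors and is a standard readout of receptor activity. It was at 67.1, 59.5, 68.8 and 75.3 CPM in homecage replicates 1 to 4 and at 154, 122, 164 and 117 CPM in SOR replicates 1 to 4. The lowest SOR library stood well above the highest homecage library. The fold was 2.05 (95% interval 1.70 to 2.47), or 1.04 on the log2 scale (SE 0.123, unadjusted p 2.92e-06, edgeR adjusted p 0.00992). Only 4 genes of all those tested had a smaller p. The size moved little with the library left out, from 0.95 without SOR replicate 3 to 1.11 without SOR replicate 4. The call was lost without homecage replicate 1, 2 or 3 (adjusted p 0.0817, 0.0626 and 0.0805) and without SOR replicate 1 (0.0636).

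Cdkn1a (ENSMUSG00000023067.13, chromosome 17, 29090976 to 29100727, plus strand, 11 exons) encodes p21, an inhibitor of cyclin-dependent kinases that is also a target of p53. It was the least abundant of the 10 genes, with 61 to 106 counts per homecage library and 129 to 286 per SOR library. Its levels were 2.04, 1.42, 1.55 and 1.63 CPM in the homecage and 5.95, 4.04, 6.10 and 3.31 CPM after SOR, again without overlap. The fold was 2.92 (95% interval 2.06 to 4.14), or 1.54 on the log2 scale (SE 0.230, edgeR adjusted p 0.0404). Adding tTA to the model brought the adjusted p to 0.0594, and with a block on replicate number the gene was not called either. The adjusted p was above 0.05 in 6 of the 8 fits that left out 1 library. It was below 0.05 without SOR replicate 3 (0.0259) or SOR replicate 4 (0.0226). The log2 fold change stayed between 1.42 and 1.69. Its exons share 273 bases with an annotated gene on the other strand, AC167363.2, and whether counting used strand is not stated. Exons of Nr3c2 likewise share 247 bases with Gm10649 on the other strand, which had a mean of 4.744 CPM.

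**Figure D2:**
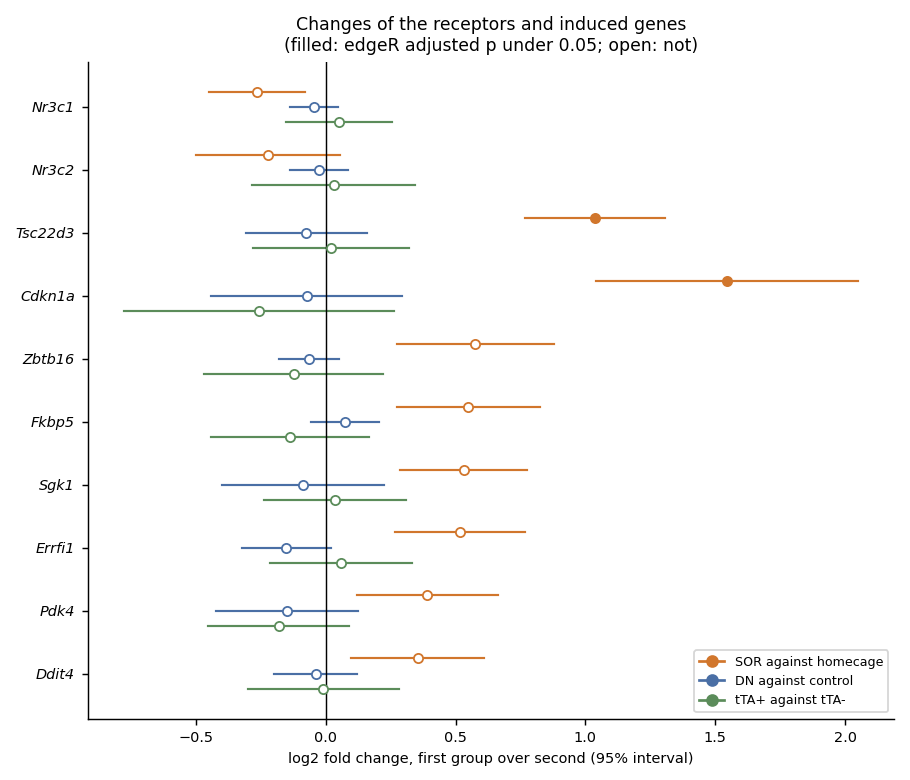
Log2 fold change of each gene on the x axis with its 95% interval, for SOR against homecage, DN against control and tTA+ against tTA-; filled points had an edgeR adjusted p under 0.05. Tsc22d3 at 1.04 and Cdkn1a at 1.54 after SOR are the only filled points among the 30 shown.

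Sgk1 (ENSMUSG00000019970.15, chromosome 10, 21882184 to 21999903, plus strand) encodes a kinase that regulates ion channels and transporters and is induced through both receptors. It was at 85.4, 85.9, 81.7 and 96.7 CPM in the homecage and at 126, 153, 107 and 118 CPM after SOR. The groups did not overlap. The log2 fold change was 0.53 (SE 0.111, interval 0.288 to 0.774; unadjusted p 0.000505, edgeR adjusted p 0.191). Without SOR replicate 3 it was called (0.60, edgeR adjusted p 0.0291).

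The promoters bear on these genes because the receptors bind a palindromic element, AGAACA and TGTTCT with 3 bases of any kind between them. RefSeq start sites on GRCm38.p6 gave 17 windows of 250 bases upstream for 8 of the 10 genes, Nr3c1 and Zbtb16 having no entry. Both strands were searched, and the element reads the same on both. It was found in 1 of the 17 windows, an internal start site of Sgk1, and in 3 of all 32851 windows (0.00913%). A looser form, GNACA and TGTNC with the same gap, which every copy of the first also matches, was found in the same window only among the 17, and in 0.387% of all windows. The half-site AGAACA was found in 4 of the 17 windows, 3 of Sgk1 and 1 of Tsc22d3, against 16.1% of all windows. Gene counts do not say which start site was used. A match is a description of letters, and an absence says only that the letters are not in this window. The Sgk1 window is shown with the full element in capitals, beside 1 window each of Tsc22d3 and Fkbp5 that held neither form nor a half-site. Each is the 250 bases before a start, 5′ to 3′ on the gene's strand.
Sgk1, chr10:21993640-21993889, plus strand: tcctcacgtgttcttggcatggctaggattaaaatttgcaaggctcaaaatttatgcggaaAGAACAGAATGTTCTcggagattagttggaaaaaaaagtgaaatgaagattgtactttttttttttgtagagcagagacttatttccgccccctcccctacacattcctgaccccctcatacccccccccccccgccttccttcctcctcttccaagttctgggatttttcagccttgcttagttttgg
Tsc22d3, chrX:140548572-140548821, minus strand: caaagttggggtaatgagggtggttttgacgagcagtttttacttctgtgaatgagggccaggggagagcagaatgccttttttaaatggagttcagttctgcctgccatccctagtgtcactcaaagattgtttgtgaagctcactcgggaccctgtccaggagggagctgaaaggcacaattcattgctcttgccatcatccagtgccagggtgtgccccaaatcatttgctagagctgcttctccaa
Fkbp5, chr17:28486150-28486399, minus strand: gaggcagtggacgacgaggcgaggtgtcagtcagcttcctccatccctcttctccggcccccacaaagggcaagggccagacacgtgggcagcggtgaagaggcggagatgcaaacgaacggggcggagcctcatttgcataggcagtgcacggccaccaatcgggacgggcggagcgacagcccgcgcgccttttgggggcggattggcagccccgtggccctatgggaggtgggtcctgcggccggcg

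Fkbp5 (ENSMUSG00000024222.16, chromosome 17, 28399094 to 28517527, minus strand) encodes a co-chaperone that holds the glucocorticoid receptor in a state of low affinity, a feedback on the receptor that induces it. It was at 51.5, 51.3, 40.5 and 47.9 CPM in the homecage and at 71.3, 65.1, 85.8 and 57.9 CPM after SOR. SOR replicate 3 was the highest and SOR replicate 4 the lowest of the SOR libraries, as in Tsc22d3, Cdkn1a, Ddit4 and Zbtb16. SOR replicate 3 was also the highest of the 8 libraries in 29.2% of all genes. The log2 fold change was 0.55 (SE 0.126, interval 0.274 to 0.825; unadjusted p 0.00102, edgeR adjusted p 0.269).

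Zbtb16 (ENSMUSG00000066687.5, chromosome 9, 48654297 to 48836222, minus strand) encodes the transcriptional repressor PLZF. It was at 56.8, 57.3, 44.7 and 48.7 CPM in the homecage and at 73.6, 86.1, 91.1 and 58.6 CPM after SOR. SOR replicate 4 was within 2 CPM of the highest homecage library. The log2 fold change was 0.58 (SE 0.138, interval 0.273 to 0.878, edgeR adjusted p 0.316). Errfi1 (ENSMUSG00000028967.10, chromosome 4, 150853919 to 150868892, plus strand) encodes MIG6, a feedback inhibitor of the EGF receptor. It was at 41.5, 44.1, 48.1 and 56.3 CPM in the homecage and at 76.6, 67.5, 58.1 and 69.7 CPM after SOR, again a narrow gap between the groups. Its log2 fold change was 0.52 (SE 0.115, edgeR adjusted p 0.255), and without SOR replicate 3 it was called (0.58, edgeR adjusted p 0.0436).

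Pdk4 and Ddit4 showed the smallest differences of the induced genes. Pdk4 (ENSMUSG00000019577.6, chromosome 6, 5483351 to 5496309, minus strand), a kinase that shuts down pyruvate dehydrogenase and spares glucose, was at 9.55, 10.1, 10.2 and 9.37 CPM in the homecage and at 15.8, 12.8, 11.8 and 11.1 CPM after SOR. Its log2 fold change was 0.39 (SE 0.124, edgeR adjusted p 0.604). Ddit4 (ENSMUSG00000020108.4, chromosome 10, 59949669 to 59951834, minus strand) encodes REDD1, a stress-induced inhibitor of mTORC1. It was at 29.99, 26.3, 28.0 and 30.1 CPM in the homecage and at 38.3, 34.1, 44.0 and 30.2 CPM after SOR, so SOR replicate 4 barely cleared the homecage range. Its log2 fold change was 0.35 (SE 0.117, edgeR adjusted p 0.608).

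Which of the 10 genes were called varied between tools and settings, and their direction did not. All 8 induced genes were higher and both receptors lower in each of the 20 alternative fits of this comparison. DESeq2 called 6 of the 10 genes, adding Errfi1, Fkbp5, Sgk1 and Zbtb16, beside 122 calls over all genes, and the fit of all 19 libraries together called 5, beside 145. In tTA+ mice alone (3 SOR against 2 homecage) 0 of the 10 were called and 0 over all genes. There 5 of the 10 had an unadjusted p under 0.05, Tsc22d3 had a log2 fold change of 0.89, and that of Errfi1 was 0.32, against 0.52 in all 8 libraries.

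Choroid plexus markers moved with this comparison: all 8 had higher means after SOR, and their median log2 fold change was 2.16, with 0 called. SOR replicates 3 and 4, whose marker sums lay at 23.1 and 56.3 CPM, below the highest homecage library, had Tsc22d3 at 164 and 117 CPM, above every homecage library. With SOR replicates 1 and 2 left out, an alternative added after the data were seen, the log2 fold change of Tsc22d3 was 1.05 (unadjusted p 3.23e-05, edgeR adjusted p 0.164) and that of Cdkn1a 1.49 (0.333), beside 1 call over all genes. Values of 2 genes moved by more than 1.5 times: Pdk4 from 0.39 to 0.21 and Nr3c2 from -0.22 to -0.37. Sgk1 moved from 0.53 to 0.36. Endothelial markers (8 genes, led by Slco1a4) summed to 191 to 208 CPM in the homecage and 173 to 189 CPM after SOR, ranges that did not overlap. Sums of astrocyte, oligodendrocyte, microglia, blood, granule cell, CA1, CA3 and neuron markers overlapped between the groups. The part of endothelial content in these results was not tested.

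**Figure D3:**
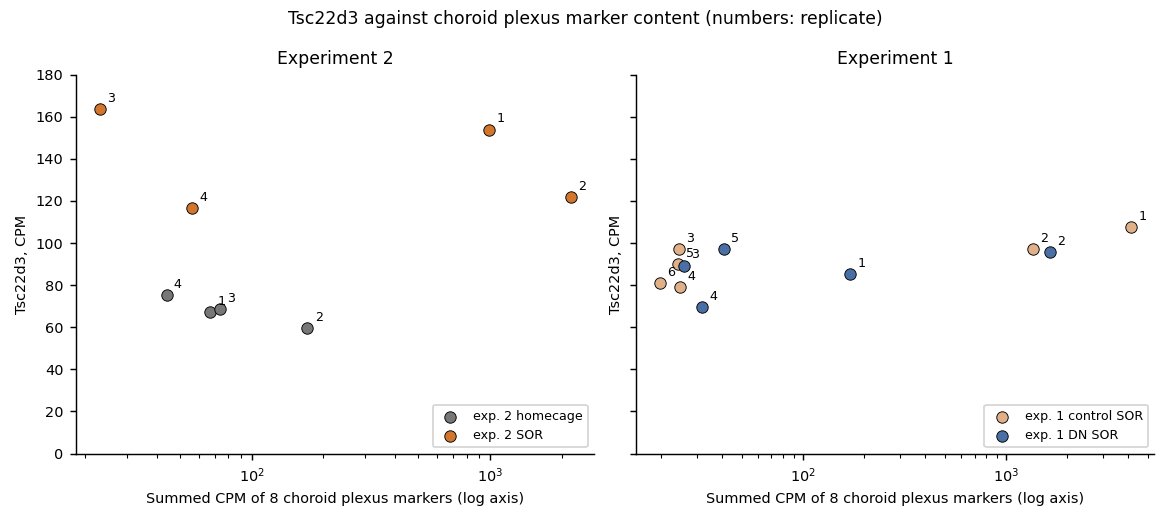
Tsc22d3 in CPM against the summed CPM of 8 choroid plexus markers (log x axis), by library, with the replicate number beside each point. In experiment 2 the SOR points lie above the homecage points at both ends of the marker range, SOR replicate 3 having the lowest marker sum (23.1 CPM) and the highest Tsc22d3 (164 CPM).

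A list of 25 other genes that glucocorticoids induce was read in the same fit. It too was written with earlier results of these data known. Of the 24 that passed the filter, 22 had a log2 fold change above 0 and 2 below, against 51.5% of all genes above. In 14 every SOR library lay above every homecage library, against 3.06% of all genes, and 2 were called, against 0.0897%. The median log2 fold change was 0.43. Plin4, which encodes a lipid droplet coat protein, rose 4.29-fold (95% interval 3.44 to 5.35), from 4.77 ± 0.836 to 20.4 ± 2.60 CPM (SD, n = 4 each), with an edgeR adjusted p of 0.000236. Gjb6, the astrocyte gap junction gene for connexin 30, rose 1.70-fold (1.43 to 2.03), from 41.6 ± 3.92 to 70.9 ± 10.6 CPM (SD, n = 4 each), with an edgeR adjusted p of 0.0427. Plin4 was called in each alternative but tTA+ mice alone. Gjb6 was not called there, with tTA as a covariate, with the replicate block, without SOR replicates 1 and 2 together, or without SOR replicate 1 or any 1 of the homecage replicates. Just outside the threshold were Mfsd2a, a lipid transporter of the blood-brain barrier, at a log2 fold change of 0.69 (edgeR adjusted p 0.0525), and the kinase gene Map3k6 at 0.95 (edgeR adjusted p 0.0595), both chosen after their values were seen. The 2 genes with lower means, named for that after their values were seen, encode C/EBP transcription factors: Cebpd at -0.03 (SE 0.226, unadjusted p 0.901) and Cebpb at -0.12 (SE 0.313, unadjusted p 0.700), neither called by edgeR.

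**Figure D4:**
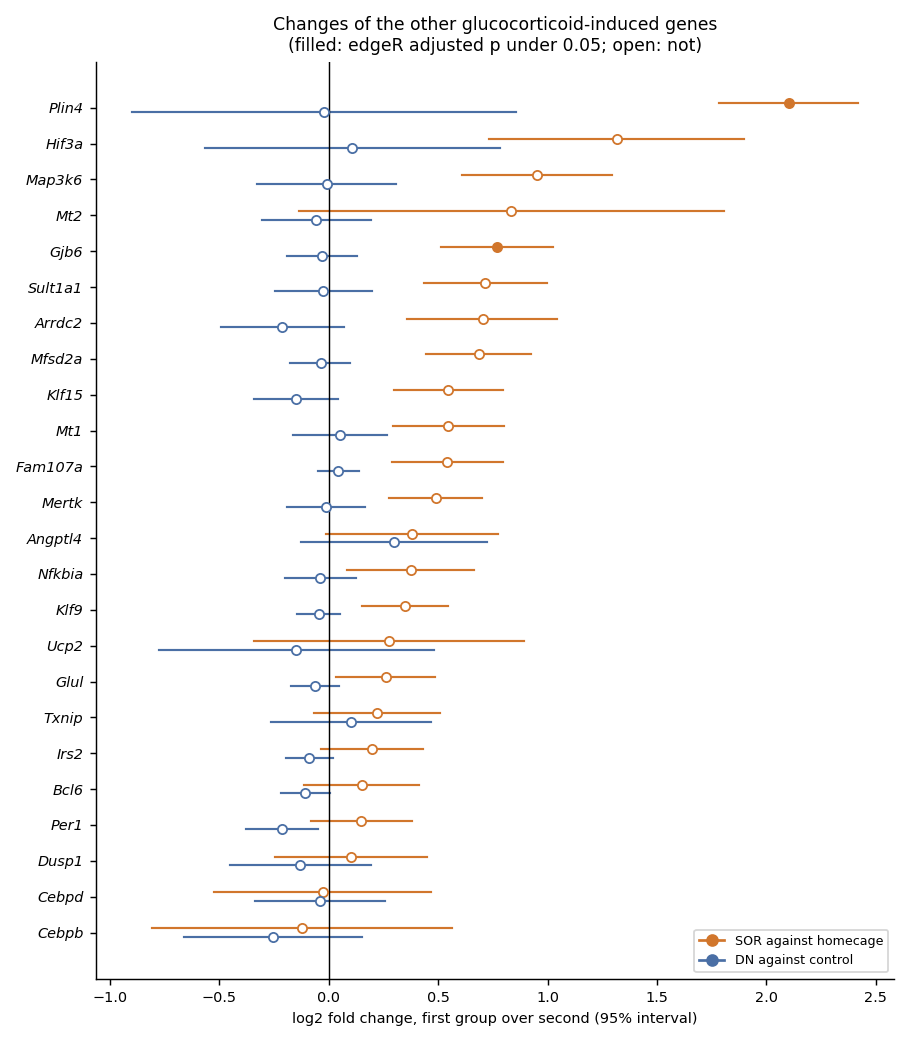
Log2 fold change on the x axis with its 95% interval for 24 other glucocorticoid-induced genes, after SOR and with DN; filled points had an edgeR adjusted p under 0.05. Plin4 at 2.10 and Gjb6 at 0.77 after SOR are the filled points, and no DN point is filled.

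Genes that act on the receptor itself were read next. Chaperones and co-chaperones of the receptor (9 genes) all had higher means after SOR, the median being 0.28 on the log2 scale, with 0 called. Of these 5 had an unadjusted p under 0.05, against 7.6% of all genes, and in 3 every SOR library lay above every homecage library, against 3.06%. The smallest p values belonged to Dnajb1 (0.49, edgeR adjusted p 0.269), Stip1, which links Hsp70 to Hsp90 (0.35, 0.604), and Fkbp4, the co-chaperone that competes with Fkbp5 (0.41, 0.621). SOR replicate 3 was the highest SOR library in Fkbp4 (235 CPM, against 142.1 to 163.4 CPM in the others) and in Stip1, and the lowest in Dnajb1. Of 8 coactivators and corepressors 2 were higher and 6 lower, with 0 called. The most different were Crebbp (-0.26, edgeR adjusted p 0.657), Ep300 (-0.11, 0.738) and Ncoa2 (-0.07, 0.827). Crebbp was lowest in SOR replicate 3 (64.95 CPM, against 71.88 to 94.58 CPM in the other SOR libraries). Of 4 genes of steroid supply 0 were called: Hsd11b1, the enzyme that regenerates corticosterone inside cells, named for its role, was at 39.7 ± 5.88 CPM in the homecage and 40.9 ± 4.11 CPM after SOR (SD, n = 4 each). Hsd11b2, which inactivates it, was at 0.326 ± 0.141 and 0.262 ± 0.0617 CPM, H6pd had a log2 fold change of 0.12 (edgeR adjusted p 0.741) and the efflux pump gene Abcb1a one of -0.04 (0.883).

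The comparison of DN with control mice in experiment 1 asks whether blocking Nr4A factors altered these genes after SOR. None of the 10 genes was called by edgeR, and 0 had an unadjusted p under 0.05, where 3.83% of the 22391 genes tested did and 0.00893% were called. DESeq2 called 0, with 1 at an unadjusted p under 0.05. The groups overlapped in all 10 genes, against 0.299% of all genes without overlap. Fkbp5 was higher and the other 9 lower on average, where the log2 fold change was above 0 in 50% of all genes, with log2 fold changes from -0.15 to 0.08 and a median of -0.07, against 1e-04 over all genes. These directions rest on small values: Nr3c2, Cdkn1a and Ddit4 changed sign in at least 1 alternative, and Pdk4 was at 0.00 in 1. DN replicate 4 was the lowest of the 11 libraries in 17 of 32 glucocorticoid-induced genes (the 8 here and 24 others), beside 9.71% of all genes. Without it Tsc22d3 was at -0.002, Sgk1 and Cdkn1a both at -0.022, Zbtb16 at -0.01 and Fkbp5 at 0.128, with 0 called. Choroid plexus markers were lower with DN in 8 of 8 (median log2 fold change -0.88, 0 called).

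Nr3c1 was at 191, 172, 195, 186 and 195.5 CPM in the DN libraries, replicates 1 to 5, and the 6 controls ran from 180.1 to 215 CPM with a median of 192 CPM. Its log2 fold change was -0.04 (SE 0.0447, interval -0.138 to 0.048). Nr3c2 was at 412, 406, 345, 384 and 398 CPM with DN, and the controls ran from 367 to 446 CPM with a median of 385 CPM, a log2 fold change of -0.03 (interval -0.137 to 0.085). The level of neither receptor separated the groups.

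Tsc22d3 was at 85.3, 95.7, 89.2, 69.7 and 97.0 CPM in the DN libraries, replicates 1 to 5, and the controls ran from 78.9 to 107 CPM with a median of 93.4 CPM. Its log2 fold change was -0.07 (SE 0.104), and the interval was -0.307 to 0.158. Cdkn1a was at 2.92, 4.54, 4.43, 3.08 and 3.02 CPM with DN and from 2.22 to 4.90 CPM (median 3.77 CPM) in the controls. Its log2 fold change was -0.07 with a wider interval, -0.441 to 0.294. DN replicate 4 held the lowest level of the DN group in Tsc22d3, Fkbp5, Sgk1 and Zbtb16.

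Sgk1 was at 90.4, 115, 79.1, 73.0 and 90.7 CPM with DN and at 81.2 to 120.0 CPM (median 90.6 CPM) in the controls, a log2 fold change of -0.09 (interval -0.401 to 0.226). Fkbp5 was at 58.6, 60.3, 56.3, 47.6 and 56.8 CPM with DN and at 46.7 to 57.4 CPM (median 54.4 CPM) in the controls, a log2 fold change of 0.08 (interval -0.057 to 0.207). Both genes overlapped between the groups over most of their range. Zbtb16 was at 93.2, 104, 96.0, 79.2 and 96.2 CPM with DN and at 92.4 to 106 CPM (median 97.9 CPM) in the controls, a log2 fold change of -0.06 (interval -0.18 to 0.052). All 6 controls of experiment 1 lay above the 4 SOR libraries of experiment 2 in this gene (58.6 to 91.1 CPM) and in Nr3c1 (141.6 to 175.7 CPM). They lay below all 4 in Tsc22d3 (78.9 to 107.5 against 116.7 to 163.6 CPM) and Fkbp5 (46.7 to 57.4 against 57.9 to 85.8 CPM). In the remaining genes these groups overlapped. Such differences cannot be told apart from that between the experiments.

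Errfi1 had the smallest p of the 10 genes with DN. DN replicates 1 to 5 stood at 57.4, 52.1, 49.7, 52.1 and 48.8 CPM, and the controls at 50.8 to 70.7 CPM (median 56.7 CPM), a log2 fold change of -0.15 (interval -0.323 to 0.019, unadjusted p 0.0778, edgeR adjusted p 0.999). Pdk4 was at 9.40, 9.80, 7.90, 9.45 and 8.94 CPM and at 7.83 to 14.4 CPM (median 9.24 CPM), a log2 fold change of -0.15 (interval -0.423 to 0.124). The highest Pdk4 value of the controls was that of control replicate 1, which also had the highest choroid plexus marker sum (4116 CPM). Without the 4 libraries whose marker sum was above 100 CPM the log2 fold change of Pdk4 was 0.00. Ddit4 was at 28.3, 34.6, 29.5, 33.3 and 28.2 CPM and at 27.7 to 37.6 CPM (median 30.9 CPM), a log2 fold change of -0.04 (interval -0.198 to 0.12).

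Of the 24 other glucocorticoid-induced genes tested, 0 were called with DN, 5 were higher and 19 lower, where 50% of all genes were higher. The median log2 fold change was -0.04. These directions include DN replicate 4, the lowest library in 17 of the 32 induced genes. The smallest p values belonged to Per1 (-0.21, interval -0.378 to -0.051, unadjusted p 0.0130), the repressor gene Bcl6 (-0.11) and Irs2, an adaptor of the insulin receptor (-0.09), each with an edgeR adjusted p of 0.999. Plin4, named because it rose after SOR, averaged 16.2 ± 8.09 CPM over the 5 DN libraries and 16.3 ± 5.46 CPM over the 6 controls (SD). Its interval, -0.898 to 0.857, was the widest of the 24. Of the 9 receptor chaperones 8 were lower with DN and 0 called, and 4, all lower, had an unadjusted p under 0.05, against 3.83% of all genes. Fkbp4 (-0.16), Stip1 (-0.17) and Hsp90aa1 (-0.09), each with an edgeR adjusted p of 0.999, had the smallest p. Cofactors divided evenly, 4 higher and 4 lower, among them Ncoa2 (0.04) and Ep300 (-0.04). The steroid supply genes were 2 higher and 2 lower, with Hsd11b1 at -0.10, H6pd at -0.07 and Hsd11b2 at 0.19, and 0 of either list were called, each of these with an edgeR adjusted p of 0.999.

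Between tTA+ and tTA- mice of experiment 2, with exposure in the model, 0 of the 10 genes were called by edgeR and 0 had an unadjusted p under 0.05, where 5.71% of the 22904 genes tested did and 0.358% were called. DESeq2 also called 0. Of the 10, 5 were higher and 5 lower in tTA+ mice, beside 53.2% of all genes higher, with log2 fold changes from -0.26 for Cdkn1a to 0.06 for Errfi1 and edgeR adjusted p of 1 for each. Tsc22d3 differed by 0.02 (interval -0.279 to 0.32). Of the other induced genes 0 were called, the smallest p being those of Cebpd (-0.55, edgeR adjusted p 0.548), Dusp1 (0.35, 0.734) and Bcl6 (-0.24, 0.893). The 9 receptor chaperones were 8 higher and 1 lower, with Hsp90aa1 (0.15), Fkbp4 (0.15) and Hspa8 (0.09) at the smallest p. Cofactors were 4 higher and 4 lower, with Nrip1 (-0.14), Ncor1 (-0.08) and Ncoa2 (-0.08). Steroid supply genes were 3 higher and 1 lower, with Hsd11b1 (0.14), H6pd (0.09) and Abcb1a (-0.06). The chaperone, cofactor and steroid supply lists held 0 genes called by edgeR and 0 with an unadjusted p under 0.05, and the edgeR adjusted p was 1 for each of the 9 genes named from them.

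The 10 genes were last compared among libraries of the same group, as log2 CPM minus the group mean over 19 libraries. Of 45 pairs, 29 had a positive Pearson r and 16 a negative one, the median r was 0.185, and 0 pairs were past an adjusted p of 0.05 for r and 1 for Spearman's rho (permutation of libraries within groups, two-sided, adjusted over 45 pairs). The pair with the smallest p was Nr3c1 with Ddit4, at r = -0.786 (permutation p 0.00122, adjusted 0.0549) and Spearman's rho = -0.823 (permutation p 2e-04, adjusted 0.0090). Its r was -0.655 without the 2 libraries farthest in Nr3c1, -0.692 within experiment 1 (n = 11, exact permutation p 0.0294) and -0.886 within experiment 2 (n = 8, exact permutation p 0.0347). Libraries above their group's mean in the receptor's transcript tended to lie below it in Ddit4, in both experiments. The pair was picked over these same libraries, and its p within each experiment is unadjusted, so the 2 experiments are no separate test of it. After adjustment 0 pairs were called in experiment 1 alone and 0 in experiment 2 alone.

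Next came Fkbp5 with Zbtb16, at r = 0.735 (permutation p 0.00587, adjusted 0.0931) and rho = 0.605 (permutation p 0.0243, adjusted 0.219), and r = 0.561 without the 2 farthest libraries. It was 0.543 within experiment 1 and 0.826 within experiment 2. Nr3c2 with Cdkn1a had r = -0.642 (permutation p 0.00671, adjusted 0.0931) and rho = -0.695 (permutation p 0.00307, adjusted 0.0691), with -0.629 and -0.730 within the experiments and -0.660 without the 2 farthest. Nr3c1 with Fkbp5 had r = -0.676 (permutation p 0.00828, adjusted 0.0931) and rho = -0.595 (permutation p 0.0175, adjusted 0.196), with -0.408 within experiment 1, -0.902 within experiment 2 and -0.470 without the 2 farthest. Without SOR replicate 3, the library that stood apart over all genes, the r of these 4 pairs was -0.712, 0.654, -0.625 and -0.553 in the order given.

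**Figure D5:**
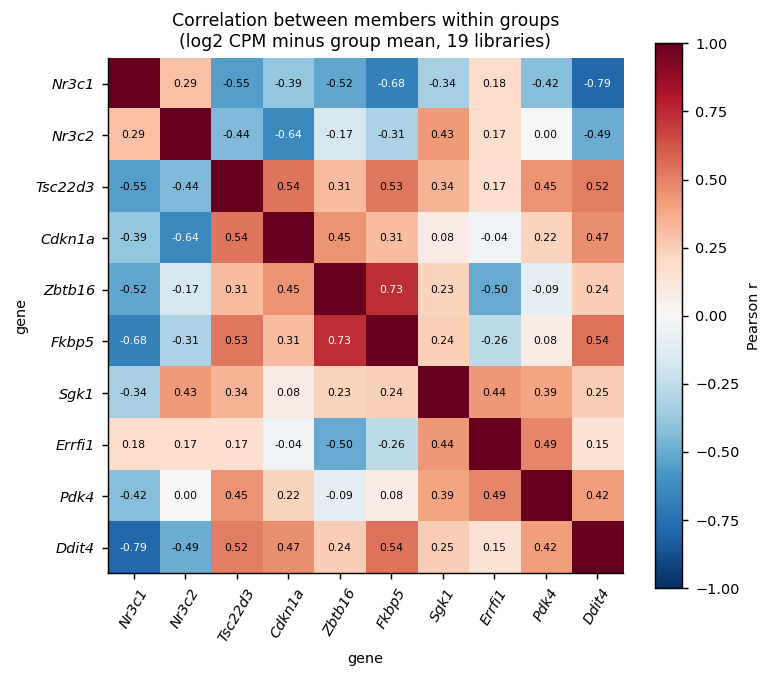
Pearson r between each pair of the 10 genes (both axes), from log2 CPM minus the group mean in 19 libraries; red is positive and blue negative. Nr3c1 is negative with Ddit4 (-0.79) and Fkbp5 (-0.68), and Fkbp5 is positive with Zbtb16 (0.73).

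Among 21739 other genes tested in both experiments, the 5 whose deviations from the group means were most like those of Tsc22d3 over 19 libraries were Tsc22d1 (r = 0.907), a paralog in the same family of leucine zipper genes, Rpp21 (0.883), Gjb6 (0.854), Plin3 (0.841) and Gfer (0.834). They were picked as the top of this ranking, so r is a description with no test. The r was also high in each experiment alone, from 0.772 for Gjb6 to 0.915 for Tsc22d1 in experiment 1 and from 0.868 for Plin3 to 0.947 for Gjb6 in experiment 2. Within the other glucocorticoid-induced list, after Gjb6, Klf15 and Mt1 ranked 26 and 27 by the same measure, at r = 0.743 and 0.740, and of the 10 genes Cdkn1a ranked nearest, at 867 with r = 0.539.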

How the data were processed

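RNA of 19 mouse dorsal hippocampus libraries was sequenced; the deposited table holds raw counts per gene, made by the authors with STAR, SAMtools 1.6 and featureCounts 1.4.4 on mm10, per the submitters' processing notes. The annotation, strand setting and treatment of multiply mapped reads are not given in the sources used here. Symbols and positions came from GENCODE M21, which holds 51596 of the 51789 IDs.

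Each experiment was fitted apart, on all genes passing filterByExpr, with edgeR 4.0.16 (TMM scaling, robust quasi-likelihood test, Benjamini-Hochberg adjustment over all genes tested, called at an adjusted p under 0.05; R 4.3.3). The model for tTA also held exposure. Log2 CPM used a prior count of 2. The fit was tested on simulated counts. Alternatives were other scalings and filters, DESeq2 1.42.0, limma 3.58.1 (voom), covariates, a block on replicate number and each library left out. Promoter windows were the 250 bases before RefSeq starts (GRCm38.p6).

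The 10 genes and all lists were chosen with earlier results of these data known. Named were all 10, in each other pathway list every called gene or else up to 3 with the smallest p, and the 5 genes most like Tsc22d3. Exceptions are marked in the text. A gene that this rule names among the cofactors is not reported here.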

Additional observations from a re-analysis of the deposited data

How the results depend on the processing

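For SOR against homecage the log2 fold changes of the 10 genes kept their direction in all 20 alternatives. Calls did not keep their number: of the 10 genes 2 were called in the fit reported and 6 by DESeq2, 5 with all 19 libraries in 1 fit, 1 with tTA as a covariate, and 0 in tTA+ mice alone or without SOR replicates 1 and 2, which are rich in choroid plexus markers. Of the other glucocorticoid-induced genes 2 were called, and 5 with no filter on low counts, 11 by DESeq2, 4 by limma-voom, 5 at an adjusted p under 0.1, 11 with all 19 libraries, 1 with tTA as a covariate, 0 in tTA+ mice alone and 1 without SOR replicates 1 and 2. Over all genes the calls in these fits were 20 as reported, 36 with no filter, 122 by DESeq2, 24 by limma-voom, 35 at an adjusted p under 0.1, 145 with all 19 libraries, 11 with tTA as a covariate, 0 in tTA+ mice alone and 1 without SOR replicates 1 and 2. Leaving out 1 library gave 0 to 4 of the 10 genes and 1 to 7 of the others: 0 of the 10 without homecage replicate 1, 2 or 3 or SOR replicate 1, 1 without homecage replicate 4 or SOR replicate 2, and 4 without SOR replicate 3. Calls over all genes moved alongside, from 1 without homecage replicate 1, 2 or 3 to 50 without SOR replicate 3, against 20 with every library. The cause was not tested.

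Replicate numbers were not used as pairs in the fit reported. Same-numbered libraries correlated at -0.051 to 0.211 in experiment 1 and 0.047 to 0.405 in experiment 2. Differently numbered libraries were not correlated, so whether the numbers pair the samples was not tested. With the replicate block 1 of the 10 genes (Tsc22d3) and 1 of the others were called after SOR, and the DN log2 fold change of Cdkn1a was 0.028.

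With DN 0 of the 10 genes were called in any of 21 alternatives. Without the libraries rich in choroid plexus markers Ddit4 was at 0.033 and Pdk4 at 0. Leaving out 1 library gave -0.049 to 0.015 for Nr3c2, -0.19 to 0.012 for Cdkn1a and -0.084 to 0.016 for Ddit4. For tTA, upper quartile scaling put Tsc22d3 at -0.01, and leaving out SOR replicates 1 and 2 put Ddit4 at 0.045. Leaving out 1 library gave -0.035 to 0.097 for Nr3c2, -0.055 to 0.189 for Tsc22d3, -0.032 to 0.082 for Sgk1, -0.076 to 0.049 for Ddit4 and -0.045 to 0.29 for Errfi1. Of the other induced genes 0 were called for tTA, 1 with no filter on low counts, and 0 to 1 with 1 library left out, the 1 being Cebpd in both cases, without SOR replicate 3 in the latter. Over all genes the tTA calls were 82 as reported, 265 with no filter and 290 without SOR replicate 3. These small values had no settled direction. By Pearson's r 0 of the 45 correlations were called in each alternative. Spearman's rho, reported here over the 19 libraries only, gave 1, Nr3c1 with Ddit4. Depth limits Cdkn1a most, at 61 counts in its lowest library.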
